A study of Mus musculus with 6 samples.

Results

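The genes described here are 10 immediate early genes: the transcription factors Fos, Fosb, Jun, Junb, Jund, Atf3, Egr1 and Nr4a1, the nuclear protein gene Ier2, and Dusp1, which encodes a phosphatase of MAP kinases. They were taken as every probe carrying one of these symbols in the authors' fold-change table, which gave 12 probes of the 31692 in that table and 10 of its 16361 gene symbols, with a pair of probes each for Junb and Jund. All 12 were well above background on all 6 arrays. A further Fosb probe of the array design lies outside that table and was well above background on 0 of the 6 arrays.

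The RNA came from spleens of female mice of the NOD strain, which is prone to autoimmune diabetes, and was read on 1-colour Agilent arrays. Mice entered at 6 weeks of age, were injected intraperitoneally each day with MOTS-c at 0.5 mg/kg/day or with a scrambled MOTS-c peptide as vehicle, and were killed at 18 weeks after a fast of 16 to 18 h. Each group had 3 arrays, called MOTS-c 1 to 3 and vehicle 1 to 3, and MOTS-c against vehicle is the only comparison. MOTS-c is a short peptide encoded in mitochondrial DNA, given here systemically, and whole spleen was sampled, so fewer cells of a type and less RNA per cell cannot be told apart. A slide held vehicle 1 and 2, and the other slide, called slide 2, held vehicle 3 and all 3 MOTS-c arrays, so slide and group overlap in part.

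Immediate early genes are transcribed within minutes of a stimulus without new protein synthesis, because the factors that switch them on, such as serum response factor, its ETS partners and CREB, are already bound or ready in the cell. Fos and Jun family proteins pair through leucine zippers to form AP-1, EGR1 and NR4A1 act through zinc fingers, and DUSP1 removes phosphate from the MAP kinases that started the response. In lymphocytes they follow antigen receptor signalling. In many tissues they also rise with stress and with handling after death. The time between death and RNA isolation is not given in the sources used here, and its part in the values below was not tested.

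The promoters were searched for letters read by CREB, AP-1, EGR1 and serum response factor. RefSeq promoters on GRCm38.p6 were used for 8 of the 10 genes, all but Egr1 and Ier2, as the 250 bases before the start of transcription. They are printed for Fos and Dusp1, whose levels varied most between arrays, and for Nr4a1, which holds the most half-sites. Those of Jun and Junb, whose levels were highest on vehicle 1 and lowest on vehicle 3, are printed as well. Capitals mark the CREB half-site TGACG, or its reverse CGTCA, and the AP-1-like sequence TGACNTCA, in 5′ to 3′ direction of the gene.
Fos: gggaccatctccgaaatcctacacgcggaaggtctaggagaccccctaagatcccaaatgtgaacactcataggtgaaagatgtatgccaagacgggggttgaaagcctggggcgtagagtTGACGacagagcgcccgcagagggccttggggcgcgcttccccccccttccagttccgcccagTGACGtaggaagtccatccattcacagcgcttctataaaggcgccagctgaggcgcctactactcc
Jun: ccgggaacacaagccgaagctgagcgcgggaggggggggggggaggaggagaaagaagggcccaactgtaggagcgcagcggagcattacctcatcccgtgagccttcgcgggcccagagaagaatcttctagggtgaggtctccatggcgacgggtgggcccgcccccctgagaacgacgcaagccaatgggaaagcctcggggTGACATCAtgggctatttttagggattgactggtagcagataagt
Junb: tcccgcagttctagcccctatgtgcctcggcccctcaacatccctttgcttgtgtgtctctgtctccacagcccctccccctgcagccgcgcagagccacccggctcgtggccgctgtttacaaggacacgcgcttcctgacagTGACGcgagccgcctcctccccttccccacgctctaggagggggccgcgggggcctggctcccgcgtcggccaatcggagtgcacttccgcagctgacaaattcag
Nr4a1: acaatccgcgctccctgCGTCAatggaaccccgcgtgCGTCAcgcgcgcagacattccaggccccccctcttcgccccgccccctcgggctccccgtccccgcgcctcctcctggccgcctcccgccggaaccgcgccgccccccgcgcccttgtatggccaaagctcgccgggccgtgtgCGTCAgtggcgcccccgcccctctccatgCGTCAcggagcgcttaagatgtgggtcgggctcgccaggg
Dusp1: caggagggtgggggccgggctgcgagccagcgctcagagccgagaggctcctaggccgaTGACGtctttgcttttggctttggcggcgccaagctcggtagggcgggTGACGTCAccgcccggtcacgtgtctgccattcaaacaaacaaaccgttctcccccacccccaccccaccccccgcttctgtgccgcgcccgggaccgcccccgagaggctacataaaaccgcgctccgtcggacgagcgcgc
The Fos stretch is chr12:85473640-85473889 (+ strand). That of Jun is chr4:95052223-95052472 (- strand). That of Junb is chr8:84978749-84978998 (- strand). That of Nr4a1 is chr15:101266596-101266845 (+ strand). That of Dusp1 is chr17:26508473-26508722 (- strand). The half-site TGACG was present in 6 of the 8 promoters, all but those of Jun and Jund, on either strand, and in 17.8% of 32851 mouse promoter windows of the same length. Nr4a1 held 4 copies and Fos 2. Dusp1 held 3, of which 2 overlap as the full palindrome TGACGTCA, which 1.55% of all windows hold. The sequence TGACNTCA was in 2 of the 8, Dusp1 as that palindrome and Jun as TGACATCA, and in 7.49% of all windows. The AP-1 site TGANTCA was in 0 of the 8 and in 6.75% of all windows. The EGR motif GCGNGGGCG was in 2 of the 8, Fosb and Nr4a1, and in 4.7% of all windows. The CArG box, the letters read by serum response factor, was in 0 of the 8 windows and in 1.47% of all. Only its strict form was searched, CC, then 6 letters that are A or T, then GG. Forms that depart from it by a base were not counted. Bases farther upstream were not searched and Egr1 and Ier2 are not among the 8, so this does not show that the genes lack such boxes. These matches are letters only and were not tied to binding in these spleens.

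With MOTS-c none of the immediate early genes passed the test. For all but Egr1, Nr4a1 and Ier2 the direction depended on the vehicle arrays used. In limma's comparison 0 of the 12 probes reached an adjusted p under 0.05, which 0.00593% of the 33740 tested probes did. Of the 12 probes, 4 had higher means with MOTS-c and 8 lower, with a median log2 difference of -0.037, beside 0.023 for all tested probes and -0.068 for tested probes above the arrays' 75th percentile. With the slide as a block, which sets MOTS-c against vehicle 3 alone, 11 of the 12 were higher with MOTS-c. Their median was then 0.41, beside 0.043 for all tested probes. Without vehicle 1, 10 of 12 were higher, with a median of 0.23. Egr1 was the only member whose groups did not overlap, and it was 1.52-fold higher. At an unadjusted p under 0.05 lay 1 of the 12, Egr1, where 25.4% of all tested probes lay, 11.3% higher and 14.1% lower. The groups did not overlap for 34.7% of all tested probes, so 1 of 12 is below that background. Levels are given as log2 of the signal relative to the array's 75th percentile, so a level of 0 is that percentile, and levels of different probes are not comparable.

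**Figure D1:**
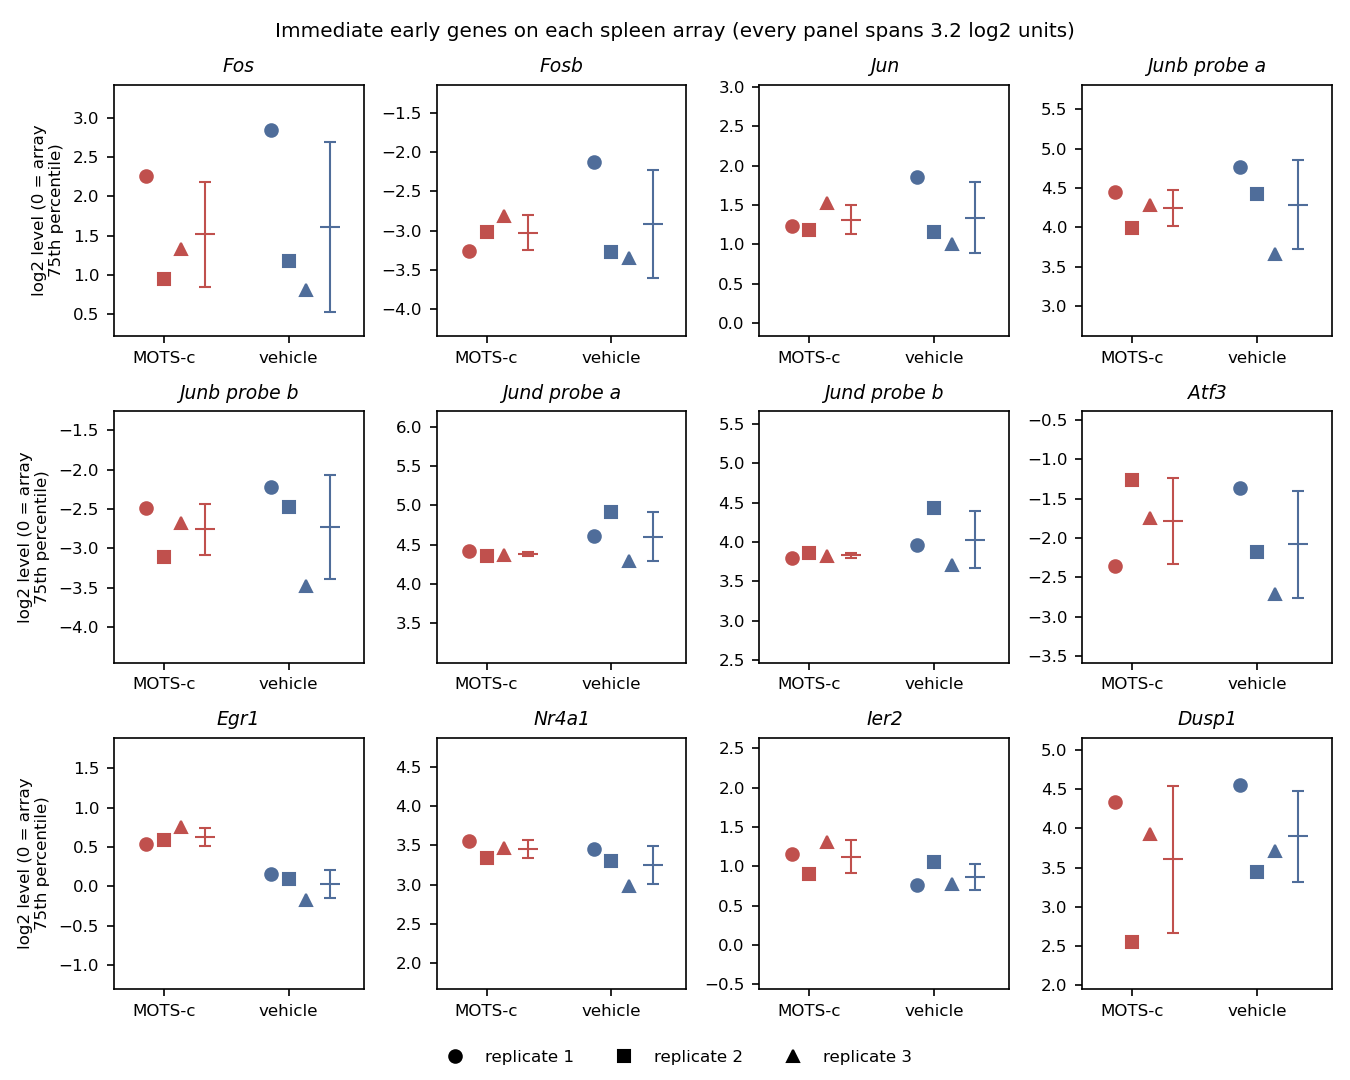
Level of each of the 12 probes (log2, 0 = the array's 75th percentile) on the 3 MOTS-c arrays (red, left) and the 3 vehicle arrays (blue, right), with the group mean and SD as a bar beside the points. Egr1 is the only panel in which all MOTS-c points lie above all vehicle points, and vehicle replicate 1 stands high for Fos, Fosb and Jun. Heights are not comparable between panels.

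Fos and its relative Fosb supply the partner of Jun proteins in AP-1 and are the members most tied to a recent stimulus. Fos stood at 2.26, 0.95 and 1.33 on MOTS-c 1 to 3, against 2.84, 1.18 and 0.80 on vehicle 1 to 3. The highest and the lowest value were both vehicle arrays, and the groups overlapped fully. Its means were 1.51 ± 0.67 with MOTS-c and 1.61 ± 1.09 with vehicle (SD, n = 3 each), a difference of -0.094 ± 0.56 (SE, limma adjusted p 0.924) with a 95% interval of -1.42 to 1.23. That interval holds a rise or a fall of more than 2-fold, so these arrays do not exclude a change of that size. Fosb read -3.26, -3.01 and -2.81 with MOTS-c, against -2.13, -3.27 and -3.35 with vehicle. Vehicle 1 was the highest of the 6 arrays again, and the remaining 5 lay between -3.35 and -2.81. Fosb differed by -0.11 ± 0.33 (adjusted p 0.846). The Fos probe lies at chr12:86818118-86818177 and the Fosb probe at chr7:19888168-19888227, both in mm9.

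Jun, the partner that can also pair with itself, showed 1.24, 1.18 and 1.53 with MOTS-c and 1.86, 1.16 and 1.01 with vehicle. Here too vehicle 1 was highest and vehicle 3 lowest, and all 3 MOTS-c values lay between them. The difference was -0.025 ± 0.25 (SE, adjusted p 0.954, 95% interval -0.60 to 0.55). Junb, a Jun relative that can restrain Jun, was read by probes 1038 bases apart at chr8:87500843-87500902 and chr8:87501881-87501940 in mm9. The brighter probe gave 4.45, 3.99 and 4.28 with MOTS-c, against 4.77, 4.43 and 3.66 with vehicle. The dimmer probe gave -2.49, -3.11 and -2.67 with MOTS-c, against -2.23, -2.48 and -3.48 with vehicle. On this scale both probes placed vehicle 1 highest and vehicle 3 lowest, and their differences of -0.046 and -0.029 were 0.017 apart. In the authors' values MOTS-c 1 lay above vehicle 1 for the brighter probe, at 14.28 against 14.23. Limma adjusted p-values were 0.929 and 0.962.

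Jund, the Jun relative that is usually expressed without a stimulus, had small differences and nearly equal values within MOTS-c. Its brighter probe, at chr8:73224302-73224361, read 4.42, 4.36 and 4.37 with MOTS-c and 4.61, 4.91 and 4.29 with vehicle. Vehicle 2 was the highest array and vehicle 3 the lowest. A probe 134 bases away, at chr8:73224436-73224495, gave 3.80, 3.86 and 3.83 with MOTS-c, against 3.96, 4.43 and 3.70 with vehicle. Both differences were small, at -0.22 ± 0.19 and -0.20 ± 0.20 (SE, adjusted p 0.462 and 0.542). They were -0.066 and -0.0024 without vehicle 2, -0.38 and -0.37 without vehicle 3. Blocking on slide, which leaves vehicle 3 as the only vehicle array compared, gave 0.094 and 0.13. The SD of these probes was 0.031 and 0.033 with MOTS-c and 0.31 and 0.37 with vehicle (n = 3 each).

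Atf3, a leucine zipper factor of the stress response that often represses its targets, read -2.35, -1.26 and -1.74 on MOTS-c arrays, against -1.36, -2.17 and -2.71 on vehicle arrays. MOTS-c 2 was highest, next to vehicle 1, and vehicle 3 was lowest, so the groups overlapped. The difference was 0.30 ± 0.40 (SE, adjusted p 0.645, 95% interval -0.63 to 1.22). It was 0.93 with the slide as a block, that is against vehicle 3 alone, and -0.020 without vehicle 3. Its probe lies at chr1:192994547-192994606 in mm9.

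Egr1, a zinc finger factor induced by growth factors and antigen receptors, was at 0.54, 0.59 and 0.76 with MOTS-c and at 0.16, 0.096 and -0.17 with vehicle. Every MOTS-c array exceeded every vehicle array. The values spanned 0.21 within MOTS-c and 0.33 within vehicle, beside 0.60 between the means. The means were 0.63 ± 0.11 with MOTS-c and 0.027 ± 0.18 with vehicle (SD, n = 3 each). The difference was 0.60 ± 0.16 (SE, 95% interval 0.24 to 0.97), higher in 3 of 3 MOTS-c arrays, and it did not pass, with a limma adjusted p of 0.0967. At an adjusted p under 0.1, which 6.62% of all tested probes reached, Egr1 was 1 of 12 members. The authors' deposited table gives Egr1 a signed fold of 1.53, with a p-value of 0.0102 and an adjusted p-value of 0.370. Over 16 alternative settings the difference stayed between 0.50 and 0.80, with adjusted p-values from 0.0719 to 0.474, and 0 settings passed. Some of these settings change only the probes tested or the spread used for the p-value, and repeat the main difference.

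Beside the Egr1 values, markers of T cells averaged 0.51, 0.48 and 0.35 on MOTS-c 1 to 3, against -1.43, -0.011 and 0.099 on vehicle 1 to 3, as deviations from each gene's mean. All 7 T cell markers were tested, all 7 had higher means with MOTS-c and 0 passed. Vehicle 1 was far the lowest for T cell markers, while it was the highest vehicle array for Egr1. Erythroid markers averaged -0.59, -0.47 and -0.78 with MOTS-c, against 0.95, 0.21 and 0.67 with vehicle, and all 8 of 8 were lower with MOTS-c, with 0 past the threshold. B cell markers were higher with MOTS-c for 6 of 6 genes (median difference 0.72), NK cell markers for 4 of 4 (1.18) and dendritic cell markers for 4 of 5 (0.60), with 0 past the threshold, and vehicle 1 was the lowest array for each list. The part of these cell types in the Egr1 difference was not tested.

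Nr4a1, an orphan nuclear receptor widely used as a readout of antigen receptor signalling, was at 3.56, 3.34 and 3.46 with MOTS-c and 3.45, 3.30 and 2.98 with vehicle. Vehicle 3 was the lowest, vehicle 2 lay just under the MOTS-c values and vehicle 1 among them. The difference was 0.21 ± 0.17 (SE, adjusted p 0.454, 95% interval -0.20 to 0.61). It was 0.47 with the slide as a block, that is against vehicle 3 alone, and 0.076 without vehicle 3. The authors' deposited values, whose columns share 1 distribution as after quantile normalization, separated its groups. They were 13.4, 13.1 and 13.3 with MOTS-c and 13.02, 13.01 and 12.6 with vehicle. Groups were separated for 34.4% of all probes in those values. In the authors' deposited table Nr4a1 has a signed fold of 1.30, with a p-value of 0.0739 and an adjusted p-value of 0.374. Its probe lies at chr15:101105071-101105130 in mm9.

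Ier2, a nuclear protein induced together with Fos, read 1.16, 0.90 and 1.31 with MOTS-c, against 0.76, 1.06 and 0.78 with vehicle. MOTS-c 1 and MOTS-c 3 exceeded all vehicle arrays, but MOTS-c 2 lay below vehicle 2. The difference was 0.26 ± 0.17 (SE, adjusted p 0.358, 95% interval -0.15 to 0.67). Its probe matches chr8:87185211-87185245 in mm9.

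Dusp1, the phosphatase that ends MAP kinase signalling, was at 4.33, 2.55 and 3.93 with MOTS-c and 4.55, 3.44 and 3.71 with vehicle. MOTS-c 2 was by far the lowest array, and the other 2 MOTS-c arrays lay between vehicle 1 and vehicle 3. The difference was -0.29 ± 0.49 (SE, adjusted p 0.716, 95% interval -1.44 to 0.85). On MOTS-c 2 Fos was also the lowest of the MOTS-c arrays, while Atf3 was the highest of all 6. Neutrophil markers averaged 0.90, 1.21 and -0.68 with MOTS-c and -0.62, -1.23 and 0.41 with vehicle, so MOTS-c 2 was highest in these, and 8 of 9 had higher means with MOTS-c with 0 past the threshold. Heat shock genes averaged -0.24, 0.18 and -0.063 with MOTS-c and 0.22, 0.036 and -0.13 with vehicle. The part of neutrophils or of heat shock in the Dusp1 values was not tested. The Dusp1 probe lies at chr17:26642624-26642683 in mm9.

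**Figure D2:**
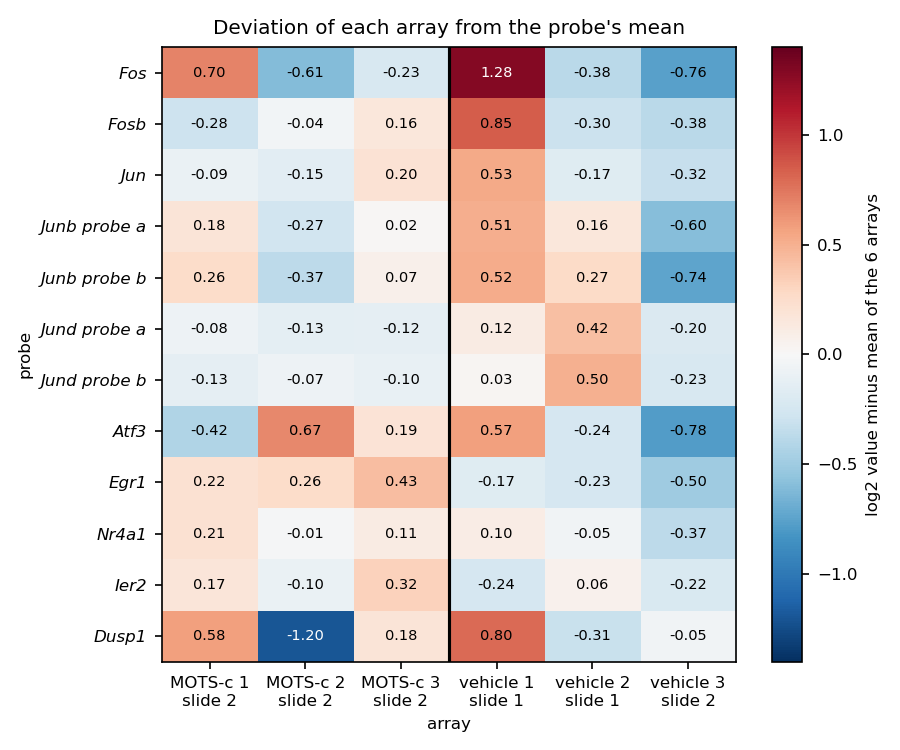
Deviation of each array from the probe's mean over the 6 arrays (log2, red above and blue below), for the 12 probes in rows and MOTS-c and vehicle arrays in columns with their slide. Vehicle 1 is red for 10 of the probes and vehicle 3 is blue for all 12, while the MOTS-c columns mix both colours. Dusp1 on MOTS-c 2, at -1.20, is the deepest blue cell.

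Many of the members were low on vehicle 3, and several of these were high on vehicle 1. Vehicle 3 was the lowest of all 6 arrays for 10 of the 12 probes, where it was lowest for 13.6% of all tested probes. Vehicle 1 was the highest of the 6 for 6 of the 12, where it was highest for 32.9% of all tested probes. Both held at once for 5 probes, those of Fos, Fosb, Jun and the pair for Junb, and for 3.49% of all tested probes. Probes of a gene share a target and all members share the same RNA, so these counts describe 3 vehicle samples. The other members departed from the order of vehicle 1 highest and vehicle 3 lowest. Atf3, Egr1 and Nr4a1 were lowest on vehicle 3 but highest on a MOTS-c array. Jund was lowest on vehicle 3 and highest on vehicle 2. Ier2 was lowest on vehicle 1, and Dusp1 was lowest on MOTS-c 2. Averaged over the 10 genes with 1 probe each, the deviations were 0.12, -0.16 and 0.13 on MOTS-c 1 to 3, against 0.43, -0.10 and -0.42 on vehicle 1 to 3. The vehicle mean of the 10 genes thus spanned 0.85, wider than the MOTS-c values, all of which it enclosed.

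Spread between arrays of a group also differed among the members. The SD pooled over both groups was 0.90 for Fos, larger than that of 98.5% of tested probes, 0.78 for Dusp1 (97.4%) and 0.62 for Atf3 (94.0%). Egr1, at 0.15, had a larger SD than only 20.2% of tested probes, and Nr4a1 and Ier2, both at 0.19, exceeded 33.4% and 34.1%. The vehicle SD exceeded the MOTS-c SD for 10 of the 12 probes and for 72.7% of all tested probes, the exceptions among the members being Ier2 and Dusp1.

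Leaving out vehicle 1 turned the direction of Fos, Fosb, Jun, both Junb probes and Dusp1, while leaving out vehicle 3 turned that of Atf3 and made the negative differences of the others larger in size. Without vehicle 1 the median difference of the 12 probes was 0.23, with Fos at 0.52, Fosb at 0.28, Jun at 0.23, the Junb probes at 0.20 and 0.22 and Dusp1 at 0.033. Without vehicle 3 it was -0.34, with Fos at -0.50, Fosb at -0.33, Jun at -0.19 and the Junb probes at -0.36 and -0.41. The number of probes whose groups did not overlap was 4 without vehicle 1, where 38.3% of all tested probes did not, and 4 without vehicle 3, where 51.1% did not. With the slide as a block, or within slide 2, which holds vehicle 3 alone of its group, the median was 0.41, with 11 of 12 probes higher with MOTS-c. Within slide 2 the groups did not overlap for 11 probes, beside 67% of all tested probes. None of the 12 passed in any of these settings. Egr1, Nr4a1 and Ier2 were higher with MOTS-c under all 16 alternatives, without passing. Some of these alternatives change only the probes tested or the spread used for the p-value. Their differences repeat the main ones and are no separate check of direction.

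**Figure D3:**
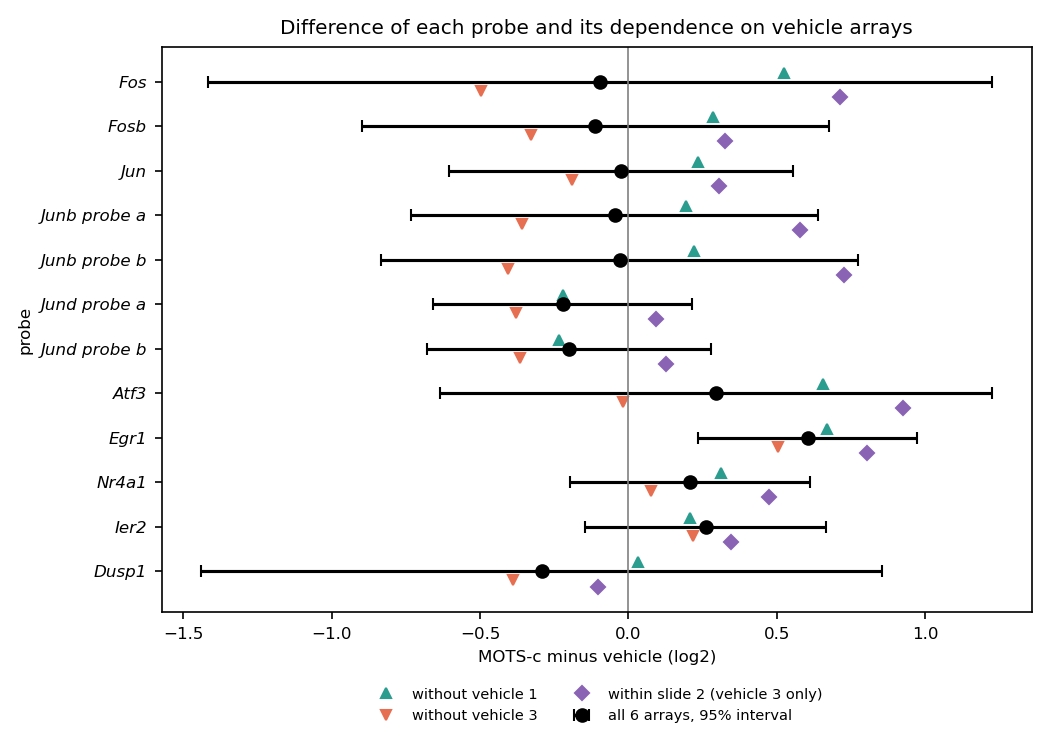
MOTS-c minus vehicle (log2) for the 12 probes from all 6 arrays with a 95% interval (black), without vehicle 1 (green), without vehicle 3 (orange) and within slide 2, against vehicle 3 alone (purple). All intervals but that of Egr1 (0.24 to 0.97) include 0, and green and orange points lie on opposite sides of 0 for Fos, Fosb, Jun, Junb, Atf3 and Dusp1.

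The wider immediate early response was read from 34 other genes, of which 32 were tested through their brightest probe. Their median log2 difference was 0.17, with 21 higher and 11 lower, 0 past the threshold, and 2 higher and 2 lower at an unadjusted p under 0.05. That share of 12.5% lies beside 24.7% of all named genes, 10.5% higher and 14.2% lower. The 4 with the smallest p did not share a direction. Ppp1r15a, a stress gene that restores translation, differed by -1.09 ± 0.23 (SE, limma adjusted p 0.0796), with 5.04, 5.07 and 4.86 with MOTS-c and 6.57, 5.81 and 5.86 with vehicle. Mafk, a small Maf factor, differed by -0.71 ± 0.23. Nfkbiz, a nuclear modulator of NF-kB, was 0.54 ± 0.17 higher, and Arc, a gene of neuronal activity also found in dendritic cells, 1.26 ± 0.43. Averaged over the 32 genes, MOTS-c arrays read 0.12, -0.10 and 0.19 and vehicle arrays 0.14, -0.17 and -0.17.

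The signalling that drives and ends this response was mixed too. Of 27 tested genes of the MAP kinase cascade and serum response factors, 16 were higher and 11 lower, with a median of 0.033, and 0 passed. Map2k3, a kinase upstream of p38, differed by -0.74 ± 0.15 (SE, adjusted p 0.0795), with 2.20, 2.32 and 2.25 with MOTS-c, against 3.19, 2.96 and 2.83 with vehicle. Hras differed by -0.58 ± 0.18, while Mkl1, a coactivator of serum response factor, differed by 0.50 ± 0.14 and the kinase Araf by 0.38 ± 0.15. Among 9 other MAP kinase phosphatases 7 were higher and 2 lower, with a median of 0.37. Dusp8 was the largest of them in size at -1.46 ± 0.28 (adjusted p 0.0795), with -1.06, -0.63 and -0.66 with MOTS-c, against 1.28, 0.26 and 0.50 with vehicle. Dusp7, Dusp10 and Dusp16 differed by 0.79 ± 0.28, 0.71 ± 0.29 and 0.68 ± 0.29. None of the 9 passed.

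Other leucine zipper factors, which share partners and sites with AP-1, had a median of 0.26 over 18 genes, with 13 higher, 5 lower and 0 past the threshold. Atf1, a CREB relative, differed by -0.74 ± 0.19 (SE, adjusted p 0.0924), and Atf4, the factor of the integrated stress response, by -0.44 ± 0.17. Batf2 and Atf7 differed by 0.76 ± 0.23 and 0.61 ± 0.25. Of 11 tested repressors and mRNA decay genes 5 were higher and 6 lower, with a median of -0.019 and 0 past the threshold. Nab2, which is induced by EGR1 and holds it back, was at 1.04, 1.58 and 1.77 with MOTS-c, against -0.23, 0.82 and 0.81 with vehicle, a difference of 1.00 ± 0.33 (adjusted p 0.138). Its groups did not overlap, as for 35.5% of named genes. Cnot6, a deadenylase, differed by -0.48 ± 0.19, Dcp2, a decapping enzyme, by -0.53 ± 0.24 and Cnot7 by -0.34 ± 0.18.

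The 12 heat shock genes, which like the members respond to warming and handling of tissue, had a median of -0.12, with 4 higher, 8 lower and 0 past the threshold. Hsp90aa1, the inducible cytosolic HSP90, differed by -0.57 ± 0.19 (SE, adjusted p 0.135), Hspd1 by -0.42 ± 0.21 and Hspe1 by -0.35 ± 0.21. Hspa1b, the stress-induced HSP70, was at -2.23, -1.10 and -1.15 with MOTS-c, against -1.59, -2.29 and -1.99 with vehicle, and its groups overlapped. Its difference was 0.46 ± 0.34.

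**Figure D4:**
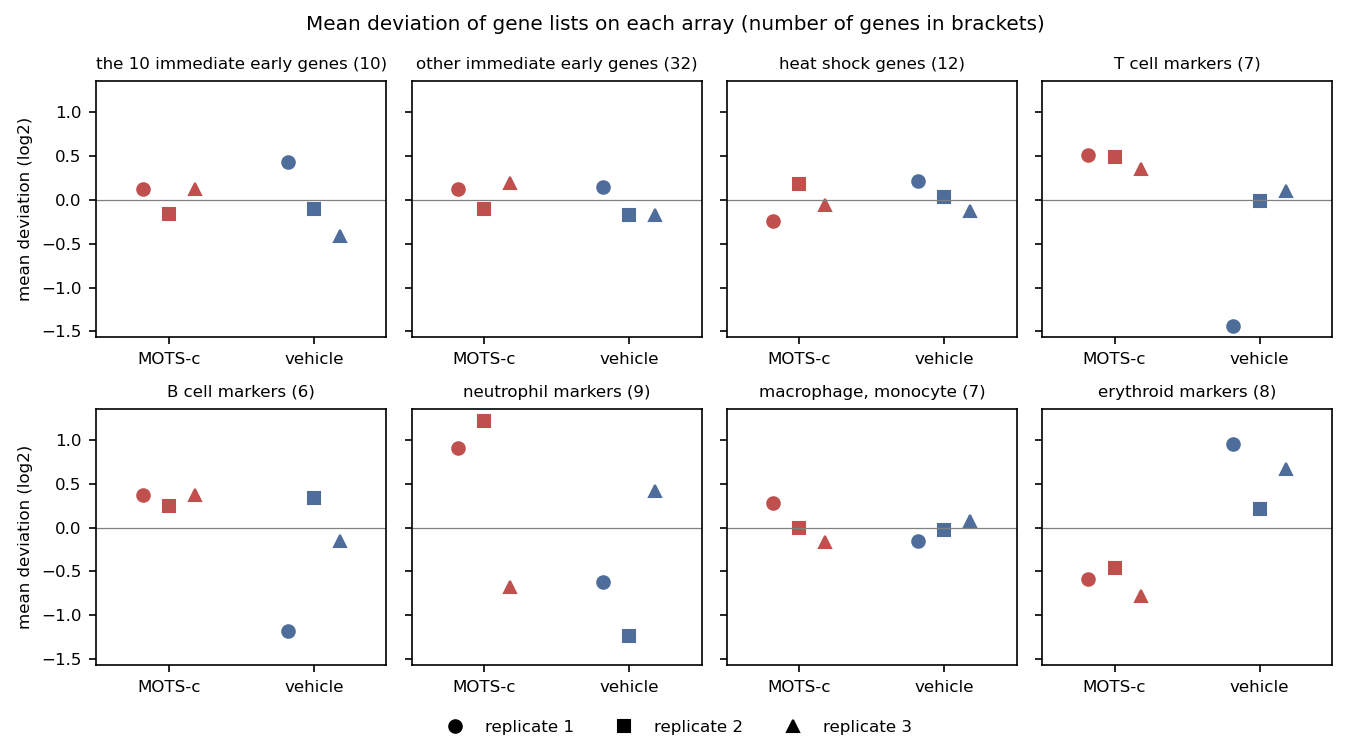
Mean deviation of 8 gene lists on each array (log2, genes centred on their mean of 6 arrays), MOTS-c in red on the left and vehicle in blue on the right of each panel, with a symbol per replicate. The 10 immediate early genes spread from -0.16 to 0.13 within MOTS-c and from -0.42 to 0.43 within vehicle. T cell and erythroid markers both separate the groups, T cell markers with vehicle 1 far below the rest.

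The profile of the 10 genes across the 6 arrays was most like that of Ano1, a chloride channel, Cwc25, a splicing factor, Neat1, a nuclear long noncoding RNA, Pim3, a kinase, and Fgfr1, a growth factor receptor. Likeness was the root mean square distance between centred log2 profiles over 6 arrays, ranked over 14403 named genes outside all lists. It was 0.052, 0.056, 0.081, 0.081 and 0.084 in that order, beside a median of 0.37. Among the members themselves Jun was nearest to their mean, at 0.11, and Dusp1 and Fos were farthest, at 0.52 and 0.51.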

How the data were processed

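Arrays were scanned for Cy3 and extracted with Agilent Feature Extraction 11.0.1.1, per the file headers, which gave a background-subtracted intensity per spot that was not normalized between arrays. The authors' deposited table holds log2 values of the same signals, whose 6 columns share 1 distribution, as after quantile normalization, with a signed fold as a score and a p-value per probe from a test that is not given in the sources used here.

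Each array held 56605 probes other than controls, with 61.8% to 64.0% of spots well above background, 0 saturated spots, and a 75th percentile of 678 to 926. Outlier spots (97 to 145 per array) were left out, spots of a probe were averaged, and each array's 75th percentile was subtracted from log2 of the processed signal. A probe was tested if all 3 arrays of MOTS-c or of vehicle had it well above background, which 33740 did. The groups were compared with limma 3.58.1 under R 4.3.3 (lmFit, eBayes, two-sided) with Benjamini-Hochberg adjustment over all tested probes. For 3 against 3 the smallest p of an exact permutation test is 0.1. Groups and numbers came from sample titles; the sample descriptions number vehicle 3 and MOTS-c 3 differently, with the same groups. Whether each sample is a mouse of its own is not stated, and p-values then reflect only how these samples vary, which may be technical, and 3 arrays a group set the precision. Probe positions come from the array design (mm9), without exon annotation. Symbols came from RefSeq through gene ID or accession, else from the table, for 28163 tested probes, and list genes were read by their brightest tested probe.

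The members, the lists and the choice of which genes to name were made with earlier results of these data known. Named are all members, the 4 genes with the smallest p of each pathway list, and the 5 genes with the most similar profile; names that are only clone or model numbers were passed over. The scanner output had no mean signal, so the normexp alternatives used the median signal. On simulated data of 33740 probes the test called 21 of 100 probes changed by a log2 of 1 and 74 of 100 changed by a log2 of 2. It also called 5 unchanged probes each time. In the real data 25.4% of probes had an unadjusted limma p under 0.05, so these rates may not carry over.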

Additional observations from a re-analysis of the deposited data

How the results depend on the processing

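The count of members past the threshold stayed at 0 under all 16 alternatives. The count at an unadjusted limma p under 0.05 was 2 with the slide as a block, beside 9.49% of all probes. It was 1 in each other alternative that kept more than 1 vehicle array, beside 14.8% to 29.9% of all probes. The number whose groups did not overlap was 2 with quantile normalization, with normexp followed by it and with the authors' values, beside 34.4%, 33.1% and 34.4% of all probes. It was 11 within slide 2, beside 67%, and 1 to 4 with each array left out, beside 38.3% to 51.1%. The median difference was 0.41 with the slide as a block and within slide 2, and -0.34 to 0.23 with each array left out. The cause was not tested.

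Directions or sizes changed as follows, and the cause was not tested. Jun became 0.027, 0.013 and 0.028 with quantile normalization, normexp followed by it and the authors' values. The brighter Junb probe became 0.17, 0.14 and 0.19 in the same order, and the dimmer Jund probe 0.015, 0.069 and 0.015. The brighter Jund probe became 0.023 with normexp and quantile normalization and 0.024 with the authors' values. With the slide as a block and within slide 2, Fos became 0.71, Fosb 0.33, Jun 0.31, the Junb probes 0.58 and 0.73, and the Jund probes 0.094 and 0.13. Atf3 became 0.93 and Nr4a1 0.47 there, in the same direction as before. With each array left out, Fos ran from -0.50 to 0.52, Fosb from -0.33 to 0.28, Jun from -0.19 to 0.23, the Junb probes from -0.36 to 0.20 and -0.41 to 0.22, the Jund probes from -0.38 to -0.066 and -0.37 to -0.0024, Nr4a1 from 0.076 to 0.31, Atf3 from -0.020 to 0.66 and Dusp1 from -0.66 to 0.23.

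Samples that share a number in the titles did not deviate together (correlations -0.17, 0.0064 and -0.090 over tested probes), so the numbers name samples only. With the replicate block 0 members passed, the median stayed at -0.037 and Egr1 had an adjusted p of 0.184. Over all probes 2 passed without the block and 0 with it, and 7175 against 8555 had an unadjusted p under 0.05. Over all probes 584 passed with normexp and the 75th percentile, 1113 without vehicle 2 and 39 without vehicle 3, beside 2 in the main setting, and none of these were members.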

Other observations

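Other members of the EGR family were picked out after their values were seen. Egr2 was at -0.13, 0.17 and -0.17 with MOTS-c, against -1.49, -0.13 and -0.62 with vehicle, and Egr3 at -1.02, -1.52 and -1.38 with MOTS-c, against -2.78, -1.25 and -2.07 with vehicle. Their differences were 0.70 ± 0.33 and 0.72 ± 0.37 (SE), and neither passed. In both, vehicle 1 was the lowest array, as it was for 29.6% of all tested probes. It was also lowest for the T cell, B cell, NK cell and dendritic cell marker lists. The lowest array for Egr1 was vehicle 3. The part of cell types in these values was not tested. In the authors' deposited table the signed folds of the brighter Junb probe (1.14), Jun (1.02) and the Jund probes (1.01 and 1.02) are above 1, where the means scaled on the 75th percentile were lower with MOTS-c.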
